A study of Mus musculus with 6 samples.

Results

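The 7 forkhead genes Foxc1, Foxc2, Foxd1, Foxd2, Foxp1, Foxp2 and Foxp4 were examined in progenitors of tendon-to-bone attachments from the mouse forelimb. They were selected on presence in the deposited count table, where a gene needs a summed count of at least 6 over the libraries, from a list of symbols drawn up with earlier results of these data known. All 7 were present, among 13158 genes deposited. Of the 44 symbols of the mouse forkhead family, 21 were present. The distal minus proximal difference of the 7 is therefore described gene by gene, and the number of them that passed a test is not evidence about the family.

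Forkhead factors are transcription factors that bind DNA through a winged-helix domain. The C class (Foxc1, Foxc2) acts in mesoderm, skeleton and vessels, and mouse embryos without these genes have defects of skull or vertebrae. The D class genes Foxd1 and Foxd2 are expressed in mesenchyme, and Foxd1 is best known from the kidney stroma. The P class (Foxp1, Foxp2, Foxp4) consists of repressors that pair with each other through a leucine zipper. In mouse cartilage these factors bind Runx2 and restrain chondrocyte hypertrophy.

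The groups were 3 distal and 3 proximal forelimb libraries at embryonic day 13.5. All came from C57BL/6 embryos labelled wild-type and untreated apart from the induction of the Cre recombinase. Every embryo carried Sox9-CreERT2 with Rosa26-tdTomato, which marks cells in which Sox9 was active when the recombinase was induced, and ScxGFP, which reports Scleraxis (Scx). Cells positive for both reporters were sorted from the dissected distal or proximal part and their 3' transcript ends were sequenced by bulk MARS-seq. When Cre was induced, and whether libraries came from separate or pooled embryos, is not stated in the labels, so the tests speak only of library-to-library spread, part of which may be technical. Distal and proximal libraries of the same number here also share a number in their titles. Whether they came from the same embryos, litter or day is not stated. In bulk libraries, fewer expressing cells and less RNA per cell cannot be told apart.

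Total counts ranged from 1585631 to 2623788, and 3 counts in a library corresponded to 1.08 to 2.01 CPM (counts brought to one library total with TMM factors). The defining genes of the sort were present in every library: Sox9 at 269 to 365 CPM in distal and 93.3 to 126 CPM in proximal libraries, and Scx at 2416 to 4122 and 949 to 1643 CPM. The 45S ribosomal precursor Rn45s held 4.63% to 11.7% of counts in distal libraries 1 and 2 and proximal library 1, and 2.20% to 2.98% in the other 3, so differences are also given within these 2 sets, which hold 2 distal libraries and 1 proximal one, and 1 distal library and 2 proximal ones. The 8 deposited skeletal muscle markers summed to 39.0 to 53.7 CPM in distal and 210.5 to 602 CPM in proximal libraries. All 6 of those tested (Myod1, Myog, Actc1, Tnnt1, Des, Myl1) were called higher in proximal libraries in edgeR, as were 2.27% of all genes tested. In limma-voom 4 passed, and Des and Myl1 did not (adjusted p = 0.223 and 0.193). The Des and Myl1 calls also ended when any single library other than proximal library 3 was left out (edgeR adjusted p up to 0.197 and 0.160). The part of muscle RNA in the forkhead differences was not tested. The 8 deposited endothelial markers, among them Pecam1, Cdh5 and Kdr, summed to only 4.45 to 13.4 and 5.35 to 13.8 CPM and none had enough counts to be tested. Of 11 progenitor, tendon and cartilage markers, edgeR called Sox9, Scx and Col2a1 higher in distal and Col1a2 in proximal libraries (36.4%, against 3.39% of all genes tested). The list was chosen with earlier results of these data known, so the count is not evidence about these markers as a group. Log2 fold changes were positive for 6 of the 11 and negative for 5. Among the negative ones, Tnmd had -1.89 (edgeR adjusted p = 0.0998) and Twist1 -0.49 (0.167). The Col2a1 call ended without distal library 1, proximal library 1 or proximal library 2 (edgeR adjusted p = 0.0719, 0.165 and 0.0607). The Scx call ended without distal library 1, proximal library 2 or proximal library 3 (edgeR adjusted p = 0.0956, 0.104 and 0.0940), and that of Col1a2 without any single library other than proximal library 1 (0.0598 to 0.0763). In the blood, nerve and epidermis lists 1 gene each was tested: Hbb-y (log2 fold change -2.57; edgeR adjusted p = 0.457), the neuronal gene Stmn2 (1.70; edgeR adjusted p = 0.0158) and Krt18 (-0.19; edgeR adjusted p = 0.900). Stmn2 no longer passed without proximal library 2 or 3 (edgeR adjusted p = 0.0895 and 0.0870). The deposited markers summed to 3.79 to 10.4 CPM in distal and 7.73 to 60.4 CPM in proximal libraries for blood, 39.6 to 64.1 and 16.9 to 35.3 CPM for nerve, and 51.2 to 79.2 and 63.6 to 80.9 CPM for epidermis. Single genes held much of these sums, so they are weak measures of cell content. Hbb-y had 57.2 CPM in proximal library 3. Stmn2 had 27.7 to 50.7 CPM in distal and 8.99 to 14.7 CPM in proximal libraries. Krt18 had 46.2 to 75.7 and 58.9 to 72.3 CPM. The part of blood, nerve and epidermis RNA in the forkhead differences was not tested.

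Of the 7 genes, 5 were higher in distal cells, 1 was higher in proximal cells, and 1 did not pass the test. Foxc1, Foxc2, Foxd2, Foxp1 and Foxp2 were 2.72 to 5.30 times higher in distal libraries, and Foxd1 was 6.08 times higher in proximal ones. Foxp4 had a 1.51-fold difference that did not pass. For all 7 genes the 3 distal libraries lay wholly to one side of the 3 proximal ones. Across all 9512 genes tested, regions did not overlap for 16.2% and 3.39% passed the edgeR test at an adjusted p of 0.05. Genes called higher in distal cells made up 1.11% and those called higher in proximal cells 2.27%. Fold changes are distal over proximal.

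**Figure D1:**
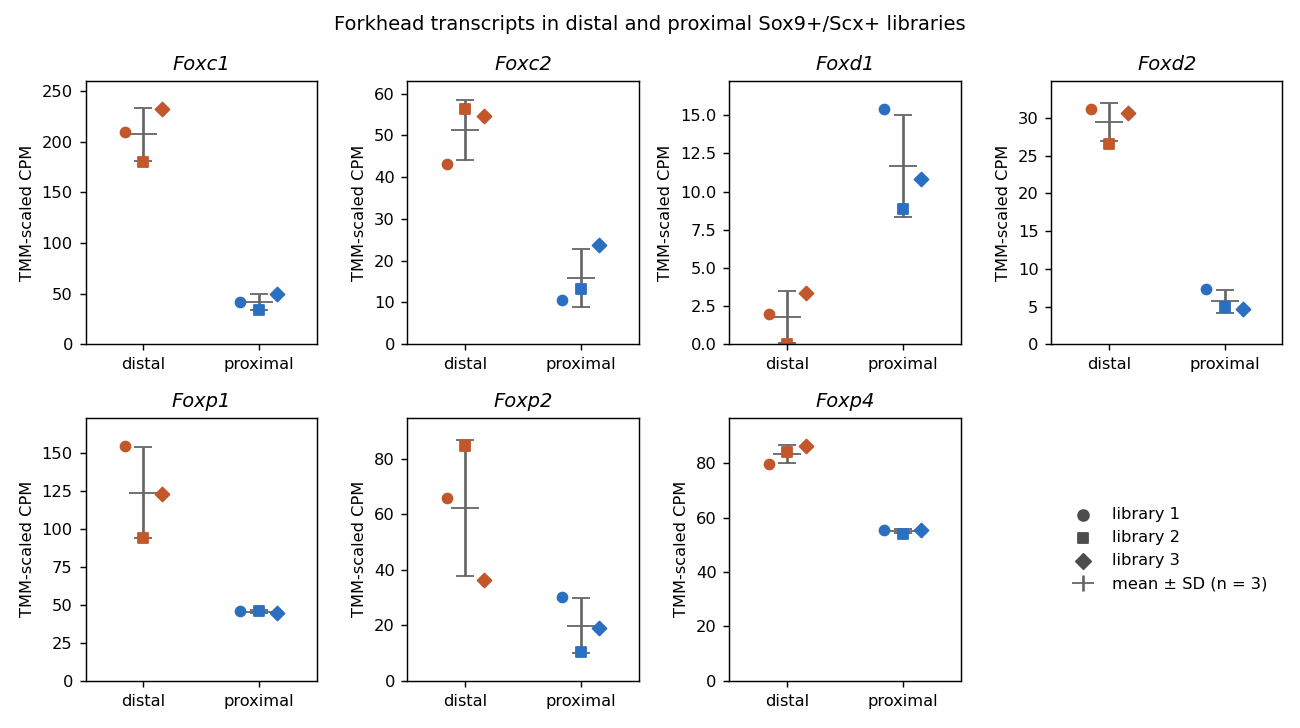
TMM-scaled CPM of the 7 genes in 3 distal and 3 proximal libraries. Each point is 1 library, and bars give the mean ± SD. Foxd1 is the gene whose proximal libraries (8.83 to 15.4 CPM) lie above its distal ones (0 to 3.34 CPM), and the other 6 genes have their distal libraries above their proximal ones.

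Both C class genes were higher in distal libraries. Foxc1 (ENSMUSG00000050295.4; GRCm38 chromosome 13, 31806633 to 31812476, plus strand) reached 210, 180 and 232 CPM in distal libraries 1 to 3, from 424, 285 and 417 counts. Proximal libraries 1 to 3 had 42.2, 33.7 and 49.3 CPM, from 63, 61 and 137 counts. The lowest distal library was far above the highest proximal one. The distal mean was 207 ± 26.2 CPM and the proximal mean 41.7 ± 7.82 CPM (SD, n = 3 each), with a fitted fold of 4.94 (log2 fold change 2.30, SE 0.19; edgeR adjusted p = 7.62e-05). It ranked 18 by p among all genes tested. The log2 difference was 2.18 in the set with more Rn45s and 2.48 in the set with less.

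Foxc2 (ENSMUSG00000046714.7; chromosome 8, 121116171 to 121118895, plus strand), whose loss in mice disturbs the vertebrae and the aortic arch, reached 43.0, 56.2 and 54.6 CPM in distal libraries 1 to 3, against 10.7, 13.2 and 23.7 CPM in proximal libraries 1 to 3. Proximal library 3 was the highest of its group and still below each distal one. The Foxc2 means were 51.3 ± 7.19 CPM (distal) and 15.9 ± 6.91 CPM (proximal), with a fitted fold of 3.09 (log2 fold change 1.63, SE 0.29; edgeR adjusted p = 0.0117), with 2.10 and 1.56 within the sets of more and less Rn45s. Foxc2 no longer passed when distal library 2 (adjusted p = 0.0533) or proximal library 2 (0.0724) was left out. The span of the annotated read-through gene Gm20388 contains Foxc2 on the same strand, so the assignment of reads there depends on the gene models used for counting.

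The D class pair went opposite ways. Foxd2 (ENSMUSG00000055210.4; chromosome 4, 114906282 to 114908873, minus strand) reached 31.2, 26.5 and 30.6 CPM in distal libraries 1 to 3, against 7.36, 4.97 and 4.68 CPM in proximal libraries 1 to 3. The distal values came from 63, 42 and 55 counts and the proximal ones from only 11, 9 and 13, with a wide gap between the regions. The Foxd2 means were 29.4 ± 2.53 CPM (distal) and 5.67 ± 1.47 CPM (proximal), with a fitted fold of 5.30, the largest of the 7 genes towards distal (log2 fold change 2.41, SE 0.29; edgeR adjusted p = 0.00137). Differences on the log2 scale were 1.83 and 2.43 within the sets of more and less Rn45s.

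Foxd1 (ENSMUSG00000078302.5; chromosome 13, 98354242 to 98359305, plus strand) had 4, 0 and 6 counts in distal libraries 1 to 3 and 23, 16 and 30 counts in proximal libraries 1 to 3. These correspond to 1.98, 0 and 3.34 CPM in distal and 15.4, 8.83 and 10.8 CPM in proximal libraries. The count of 0 in distal library 2 allows a level of up to 1.90 CPM. The Foxd1 means were 1.77 ± 1.68 CPM (distal) and 11.7 ± 3.37 CPM (proximal) (log2 fold change -2.60, SE 0.59; edgeR adjusted p = 0.0397). From the summed counts, 10 distal and 69 proximal, the ratio of distal to proximal levels was 0.163 with an exact 95% interval of 0.075 to 0.319 that covers counting error only. The call rests on few reads: leaving out any single library other than distal library 3 ended it (adjusted p = 0.155 and 0.0703 without distal libraries 1 and 2, and 0.0717, 0.0954 and 0.118 without proximal libraries 1, 2 and 3), as did limma-voom (0.0521). Without distal library 3 the log2 fold change was -3.32 (edgeR adjusted p = 0.0253). The log2 difference was -3.21 within the set of more Rn45s and -1.30 within the set of less. The muscle markers given above were also higher in proximal libraries, and their part in the Foxd1 difference was not tested.

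The 3 P class genes had positive log2 fold changes, of which 2 passed. Foxp1 (ENSMUSG00000030067.17; chromosome 6, 98925338 to 99522721, minus strand) reached 154, 94.2 and 123 CPM in distal libraries 1 to 3, against 46.2, 45.8 and 44.6 CPM in proximal libraries 1 to 3. The proximal libraries were almost level, and the spread lay in the distal ones. The Foxp1 means were 124 ± 30.1 CPM (distal) and 45.5 ± 0.816 CPM (proximal), with a fitted fold of 2.72 (log2 fold change 1.45, SE 0.20; edgeR adjusted p = 0.00315). Its log2 difference was 1.37 and 1.42 within the sets of more and less Rn45s. The annotated read-through gene Gm20696 overlaps the 5' part of Foxp1 on the same strand and leaves its 3' end free.

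Foxp2 (ENSMUSG00000029563.16; chromosome 6, 14901349 to 15441977, plus strand) varied within both regions, with 65.8, 84.7 and 36.2 CPM in distal libraries 1 to 3. Proximal libraries 1 to 3 had 30.1, 10.5 and 19.1 CPM. Distal library 3 was only a little above proximal library 1. The Foxp2 means were 62.2 ± 24.4 CPM (distal) and 19.9 ± 9.84 CPM (proximal), with a fitted fold of 3.16 (log2 fold change 1.66, SE 0.39; edgeR adjusted p = 0.0455). Foxp2 no longer passed when distal library 1 or 2 (adjusted p = 0.157 and 0.160) or proximal library 2 or 3 (0.171 and 0.155) was left out, nor in limma-voom (0.0535). Without both proximal library 1 and distal library 3, its log2 fold change was 2.29 (edgeR adjusted p = 0.00035). That fit sets distal libraries with more Rn45s against proximal libraries with less. Region and library set cannot be told apart in it. The log2 difference was 1.28 and 1.29 within the sets of more and less Rn45s. In distal libraries, library 2 had the most Foxp2 and the least Foxp1.

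Foxp4 (ENSMUSG00000023991.16; chromosome 17, 47867133 to 47924645, minus strand) reached 79.7, 84.1 and 86.4 CPM in distal libraries 1 to 3, against 55.5, 54.1 and 55.4 CPM in proximal libraries 1 to 3. Both regions were tight and did not overlap, with means of 83.4 ± 3.40 CPM (distal) and 55.0 ± 0.798 CPM (proximal). The log2 fold change of 0.60 (SE 0.16) nevertheless missed the threshold (edgeR adjusted p = 0.0901). It passed when a term for the 2 library sets was added after seeing the data (adjusted p = 0.0198), with 0.0198 to 0.295 over all alternatives. The log2 difference was 0.55 and 0.65 within the sets of more and less Rn45s.

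**Figure D2:**
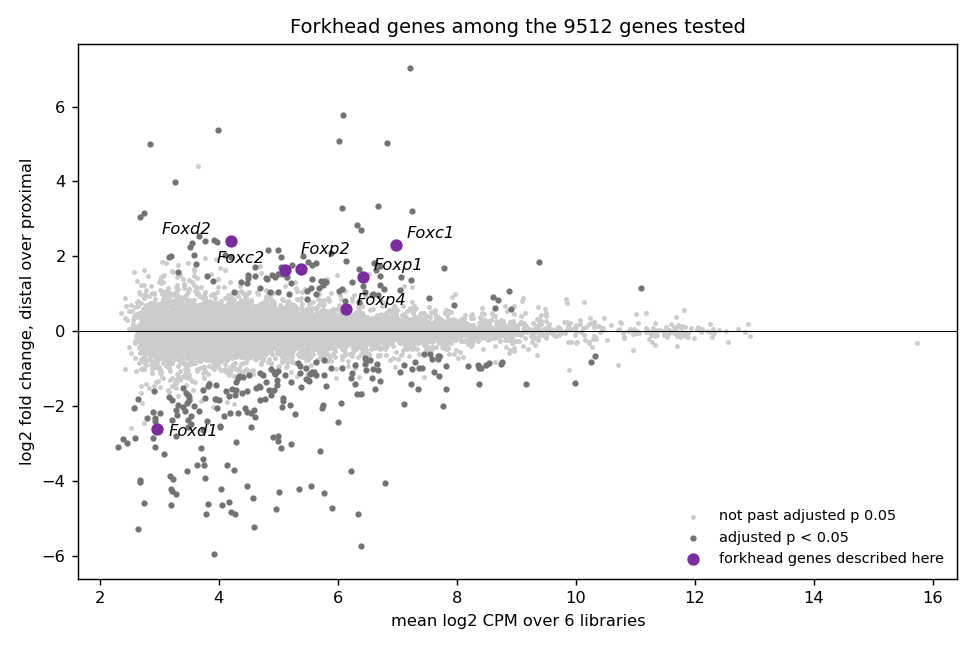
Mean log2 CPM (x axis) and log2 fold change of distal over proximal libraries (y axis) of the 9512 genes tested, with the 7 forkhead genes in purple and genes past an adjusted p of 0.05 in dark grey. Foxc1 lies at a log2 fold change of 2.30 well clear of the grey band, and Foxd1 lies among low-count genes at -2.60.

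Whether paralogues differed by unequal amounts was asked with the log2 ratio of 2 genes within each library, where scaling cancels apart from the prior count. The ratio compares regions and not the levels of the 2 genes. With 3 libraries against 3, the exact two-sided permutation test cannot go below p = 0.1, so none of the 5 pairs could pass, and all adjusted values are 0.25 or more. The log2 Foxd1/Foxd2 ratio was -3.41, -4.72 and -2.85 in distal libraries 1 to 3 and 0.97, 0.72 and 1.05 in proximal libraries 1 to 3, a distal minus proximal difference of -4.57 (exact p = 0.1). All 3 distal values were below all 3 proximal ones. This follows from the opposite directions of the 2 genes, each without overlap, and adds no further evidence. The value of distal library 2, where Foxd1 had a count of 0, depends on the prior count of 2.

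The log2 Foxp1/Foxp4 ratio was also fully separated, at 0.54 ± 0.39 in distal and -0.27 ± 0.04 in proximal libraries, a difference of 0.80 (exact p = 0.1). For Foxc1/Foxc2 the ratios overlapped, at 2.00 ± 0.30 in distal and 1.39 ± 0.44 in proximal libraries, a difference of 0.60 (exact p = 0.2). The Foxp2/Foxp4 difference was 1.04 (exact p = 0.2). The Foxp1/Foxp2 difference was -0.24 (exact p = 0.8), with overlapping libraries whose order varied within each region.

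**Figure D3:**
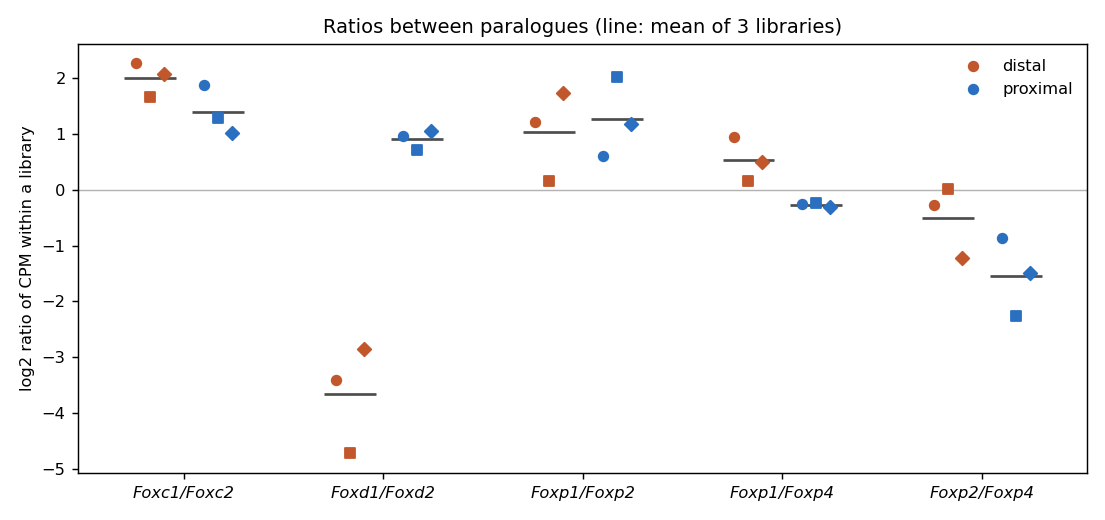
Log2 ratio of the CPM of paralogue pairs (y axis) in each of 3 distal and 3 proximal libraries; lines are means. Distal and proximal libraries are separated for Foxd1/Foxd2 (difference -4.57) and Foxp1/Foxp4 (0.80) and overlap for the other 3 pairs.

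Among the remaining forkhead genes no region difference passed. Of 14 others deposited, 8 had enough counts to be tested and none passed with edgeR, DESeq2 or limma-voom, nor at an unadjusted p of 0.05 in edgeR (0 of 8, against 10.8% of all genes tested). With 8 genes, these counts are near the shares over all genes and say nothing particular about the family. Their log2 fold changes ran from -0.27 to 0.54 with a median of -0.01, against a median of 0.01 over all genes tested. The insulin-regulated factors Foxo1 and Foxo4 had 0.54 (SE 0.25; edgeR adjusted p = 0.492) and -0.03 (SE 0.21). The Foxo1 means were 33.4 ± 3.59 CPM (distal) and 23.1 ± 6.54 CPM (proximal), and distal library 1 (30.2 CPM) was just below proximal library 2 (30.4 CPM). Foxk1 and Foxk2, repressors of autophagy genes, had -0.27 and 0.06. The mitotic regulator Foxm1 had -0.15 (SE 0.36). Foxj2, Foxj3 and Foxn3 had 0.37, -0.11 and 0.01. An unpassed test does not show that these genes were alike in both regions: an SE of 0.21 to 0.36 leaves room for changes of moderate size.

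**Figure D4:**
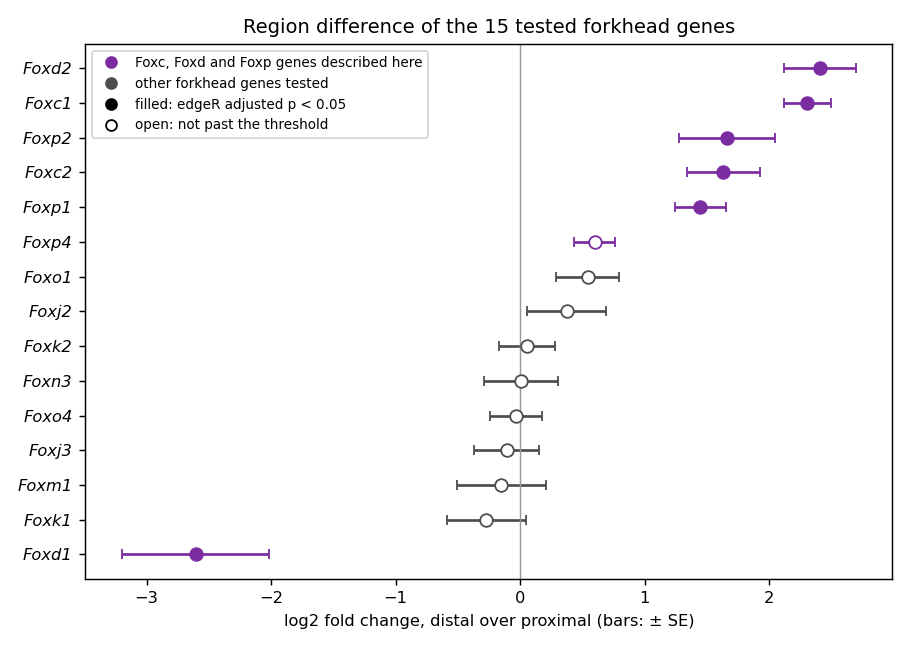
Log2 fold change of distal over proximal libraries (x axis, bars ± SE) for the 15 tested forkhead genes, one per row. Filled points passed an edgeR adjusted p of 0.05. The filled points are Foxd2, Foxc1, Foxp2, Foxc2, Foxp1 and Foxd1, and the 8 genes outside the described 7 lie between -0.27 and 0.54.

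The other 6 deposited family members had too few counts to be tested. Foxn2 had 26 counts over the distal and 25 over the proximal libraries. Foxd3, a neural crest factor, had 3 and 5, Foxj1, which drives motile cilia, 8 and 6, Foxo6 3 and 3, and Foxr1 4 and 2. Foxf2, a mesenchymal factor, had 0, 2 and 5 counts in distal libraries 1 to 3 and 0 in each proximal library.

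Neighbouring genes were compared because Foxc1, Foxc2 and Foxd2 lie in forkhead clusters. Of 17 listed neighbours 11 were deposited and 8 tested, and the median log2 fold change of the 8 was 0.27. In edgeR 2 passed (25%), both higher in distal libraries. Over all genes tested 3.39% passed, and 1.11% were called higher in distal libraries. The list was chosen with earlier results of these data known, so the count is not evidence about neighbours as a group. Mdfic, which encodes an inhibitor of MyoD-family factors, starts 278684 bases beyond Foxp2. Its levels were 19.8, 25.3 and 12.8 CPM in distal libraries 1 to 3, against 6.02, 7.73 and 6.83 CPM in proximal libraries 1 to 3 (a log2 fold change of 1.47 with an SE of 0.34; edgeR adjusted p = 0.0397). As for Foxp2, distal library 2 was highest and distal library 3 lowest of its group. The proximal order was the reverse of that of Foxp2: library 1 was lowest for Mdfic and highest for Foxp2, and library 2 highest for Mdfic and lowest for Foxp2. Gmds, an enzyme of GDP-fucose synthesis that lies 7103 bases from Foxc1, had means of 87.6 ± 12.6 CPM (distal) and 49.8 ± 6.01 CPM (proximal) (0.81 on the log2 scale, SE 0.19; edgeR adjusted p = 0.0451). Both calls ended when any single library other than distal library 3 was left out (edgeR adjusted p = 0.0745 to 0.162 for Mdfic and 0.0605 to 0.212 for Gmds), and with limma-voom. Mthfsd, 7779 bases from Foxc2, had 0.00 (SE 0.21). The divergent transcript Foxd2os starts 384 bases from Foxd2 on the other strand. It had 5, 4 and 6 counts in distal and 2, 1 and 3 counts in proximal libraries 1 to 3 and was too low to be tested.

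Partners through which FOXP proteins repress were read from a list of CtBP and NuRD complex genes. Of 15 listed, 14 were tested and 0 passed in edgeR, with 0 in DESeq2 and 0 in limma-voom. An unadjusted p under 0.05 was reached by 2 of the 14, and by 10.8% of all genes tested. Both counts are near the shares over all genes, so they say nothing particular about these partners. Their median log2 fold change was 0.04. The corepressor Ctbp2 had the smallest p, with means of 130 ± 16.3 CPM (distal) and 81.5 ± 11.9 CPM (proximal) (0.68 on the log2 scale, SE 0.18; edgeR adjusted p = 0.0714). The NuRD subunits Mta2, Rbbp4 and Gatad2a had 0.33, 0.27 and 0.24, and the deacetylase genes Hdac1 and Hdac2 had 0.06 and -0.13.

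Of 17 genes listed as chondrocyte genes in connection with FOXC and FOXP factors, 11 were tested. Their log2 fold changes were positive for 9 and negative for 2, with a median of 1.48. In edgeR 4 passed as higher in distal cells and 1 as higher in proximal cells. That is 45.5% of those tested, against 3.39% of all genes tested (1.11% distal and 2.27% proximal). The list was chosen with earlier results of these data known, so the count is not evidence about these genes as a group. The distal ones were Sox9 (1.68), Sox5 (2.38), Sox6 (1.48) and Col2a1 (1.84), and the proximal one was the growth factor gene Fgf18 (-0.90). The calls of Sox6, Col2a1 and Fgf18 each ended when some single libraries were left out, 3 or more of the 6 (edgeR adjusted p up to 0.137, 0.165 and 0.224), and that of Fgf18 also with limma-voom (0.0512). Runx2, the bone and hypertrophy factor that FOXP proteins bind in mouse, had 0.42 (SE 0.41; edgeR adjusted p = 0.863), with means of 45.9 ± 22.8 CPM (distal) and 33.1 ± 17.7 CPM (proximal). The hedgehog effector Gli2, a partner of Foxc1 in mouse cartilage, had 1.03 (SE 0.38; edgeR adjusted p = 0.274), and Pthlh, which holds chondrocytes before hypertrophy, had 1.96 (SE 0.50; edgeR adjusted p = 0.0709). The ligand gene Ihh had means of 0.541 ± 0.501 CPM (distal) and 1.05 ± 0.934 CPM (proximal) and was too low to be tested.

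The genes whose log2 CPM followed each forkhead gene most closely over the 6 libraries were listed among 6905 genes, as a description. The 6 points form 2 regions and share their libraries, so any gene with a clean region step scores high. For Foxc1 these were U2af2, Rab3ip and the mesenchymal repressor Snai1 (Pearson r = 0.998, 0.996 and 0.995). For Foxc2 they were Klhl17, Aff3 and Med22 (0.992, 0.991 and 0.982). For Foxd1 they were Shisa3, Ece2 and Hcfc1r1 (0.984, 0.983 and 0.982). Foxd2 was closest to Stard10, the forearm-patterning gene Hoxa11 and Sox9 (0.997, 0.995 and 0.994).

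The P class genes had different nearest genes. Foxp1 was closest to the ubiquitin ligase gene Wwp2, Pla2g16 and the retinoic acid receptor gene Rarg (r = 0.995, 0.993 and 0.989), Foxp2 to Cd24a, Zbtb8os and H3f3a (0.991, 0.990 and 0.987), and Foxp4 to the limb factor Hand2, Spsb4 and Stard10 (0.997, 0.995 and 0.989). The size of the step was not part of this measure: Hoxa11 had a log2 fold change of 5.77 and Foxd2 of 2.41.

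Promoter sequences (RefSeq, GRCm38.p6, 250 bases before to 50 after the start) were at hand for 5 of the 7 genes: Foxc1, Foxd1, Foxd2, Foxp1 with 3 starts, and Foxp4. Those of Foxd1 and Foxd2 are printed because the 2 paralogues differed in opposite directions, and that of Foxc1 because it had the strongest call of the 7. Capitals mark matches, on either strand, to an E-box (CANNTG, the kind of site SCX binds), a MEIS site (TGACAG), a SOX site (ACAAAG) and a GC box (GGGCGG). A forkhead site (TGTTTAC), a GLI site (TGGGTGGTC) and a TATA box (TATAAA) were also searched.
Foxc1 chr13:31806396-31806695, plus strand: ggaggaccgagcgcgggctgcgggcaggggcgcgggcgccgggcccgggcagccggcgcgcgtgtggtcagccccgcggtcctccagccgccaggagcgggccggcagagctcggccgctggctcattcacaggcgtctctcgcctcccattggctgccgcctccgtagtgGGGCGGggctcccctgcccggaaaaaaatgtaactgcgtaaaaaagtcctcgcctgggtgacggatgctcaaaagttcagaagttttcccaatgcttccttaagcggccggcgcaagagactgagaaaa
Foxd1 chr13:98353995-98354294, plus strand: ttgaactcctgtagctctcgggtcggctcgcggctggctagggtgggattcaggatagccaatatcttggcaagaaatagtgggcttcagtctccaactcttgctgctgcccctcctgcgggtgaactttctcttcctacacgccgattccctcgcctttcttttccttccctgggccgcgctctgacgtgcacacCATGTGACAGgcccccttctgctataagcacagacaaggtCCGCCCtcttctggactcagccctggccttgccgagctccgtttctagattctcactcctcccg
Foxd2 chr4:114908849-114909148, minus strand: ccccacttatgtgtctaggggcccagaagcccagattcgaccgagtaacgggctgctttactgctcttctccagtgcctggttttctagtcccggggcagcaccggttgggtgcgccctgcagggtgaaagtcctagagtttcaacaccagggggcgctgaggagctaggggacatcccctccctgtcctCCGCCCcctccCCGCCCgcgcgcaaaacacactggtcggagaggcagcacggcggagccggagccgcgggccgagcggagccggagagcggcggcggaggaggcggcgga

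The Foxd1 promoter held 1 E-box and 1 MEIS site, which overlap, and 1 GC box, while the Foxd2 promoter held 2 GC boxes and no match to the other motifs. The Foxc1 promoter held 1 GC box. E-boxes occur in 72.3% of all 32851 promoters of this length, MEIS sites in 19.2%, SOX sites in 18.7% and GC boxes in 35.7%. No forkhead, GLI or TATA match was found in any of the 7 promoters of these genes, against 3.65%, 0.253% and 13.6% of all promoters. The Foxd1 promoter had the lowest GC content of the 3 printed, 57.7% with 15 CpG, against 67.3% with 32 CpG for Foxc1 and 67.7% with 26 CpG for Foxd2; the median promoter had 52.7%. A match is a run of letters and says nothing of binding.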

How the data were processed

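Bulk MARS-seq libraries, 3 distal and 3 proximal, were analysed from the authors' deposited table, which holds raw counts per gene and, per the file headers, normalized counts, a signal made by dividing each library by 1 size factor and not used further. Tools listed, with no roles, in the submitters' processing notes are TopHat2, HTSeq, DESeq2, cutadapt 1.8.3 and bcl2fastq 2.17.1.14, and the build is mm10. Gene models, strand setting and use of molecular identifiers are not stated there. No value column belonged to another series and no row lacked a gene name.

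All 13158 genes entered edgeR 4.0.16 in R 4.3.3 (TMM, filterByExpr with minimum count 10 and total 15, robust glmQLFit and glmQLFTest, region as the only term), and 9512 were tested, with Benjamini-Hochberg adjustment over all of them. The filter keeps a gene that reaches its cutoff in as many libraries as a region holds, so high levels in a single region are enough. All 7 forkhead genes passed it. Foxd1, with 4, 0 and 6 distal counts, passed through its proximal libraries alone. Foxd2, with 11, 9 and 13 proximal counts, needed its distal libraries to pass. SE is the absolute log2 fold change divided by the root of the F statistic. The procedure was tested on simulated data. DESeq2 1.42.0, limma-voom (limma 3.58.1), other scalings, filters, a replicate block and left-out libraries were alternatives. Log2 ratios, log2 differences within library sets and correlations used log2 CPM with a prior count of 2. Groups came from the labelled tissue.

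The 7 genes and the lists (forkhead family, neighbours, partners, chondrocyte genes and cell type markers) were chosen with earlier results of these data known. Named genes were the 7, deposited forkhead genes, up to 4 genes per list with the smallest p, and the 3 most alike genes; further list members (Mthfsd, Foxd2os, Hdac1, Hdac2, Runx2, Gli2, Pthlh, Ihh, Fgf18 and single markers) were named after their values were seen. Gene spans are from GENCODE M21 (GRCm38, the mm10 assembly). Within the last 1000 bases of their transcripts, no 2 of the 7 genes shared an exact run of more than 35 bases.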

Additional observations from a re-analysis of the deposited data

How the results depend on the processing

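Foxc1, Foxd2 and Foxp1 kept their direction and their call in all 17 alternatives, with log2 fold changes of 2.17 to 2.46, 2.26 to 2.60 and 1.26 to 1.60. With libraries left out in turn, Foxc2 ranged from 1.43 to 2.08, Foxd1 from -3.32 to -2.11, Foxp2 from 1.36 to 2.02 and Foxp4 from 0.57 to 0.63, with calls lost as given above. The number of genes called between regions, 322, ranged from 171 to 334 over these fits (171, 210, 174 and 190 without distal library 1, distal library 2, proximal library 2 and proximal library 3), and that of forkhead genes, 6, from 3 to 6; without distal library 2 or proximal library 2 it was 3. With limma-voom, Foxd1 had -3.06 and Foxp2 1.69 without a call. An adjusted p of 0.01 left 143 genes and 3 forkhead genes. Omitting both proximal library 1 and distal library 3 gave 862 genes, 441 higher in distal and 421 in proximal libraries. The distal libraries left are from the set with more Rn45s and the proximal ones from the set with less. Region and library set therefore cannot be told apart there. In that fit Foxp2 was at 2.29, the top of its range of 1.27 to 2.29 over all alternatives. The term for the library set, chosen after seeing the data, gave 535 genes and a Foxp4 value of 0.61 with a call. The Foxp1/Foxp2 ratio difference changed sign without distal library 2 (0.20) and without proximal library 2 (0.14), with a range of -0.58 to 0.20. The cause of these changes was not tested.

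Distal and proximal libraries with the same number share a number in their titles, so they may be paired. Their deviations from the region means had r = 0.354, -0.136 and 0.479. Libraries with different numbers had r from -0.597 to 0.359. With only 3 libraries per region, these values cannot decide whether the libraries were paired. The main fit did not use the numbers as a pairing. With the replicate number as a block, 465 genes were called, against 322 without it. In the fit with the block 6 forkhead genes were called, and no call of the 7 genes changed. With a filter of 10 CPM in 3 libraries Foxd1 was not tested. Depth limits Foxd1, Foxf2 and Foxd2os, which had under 100 counts in all.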
